A study of Mus musculus with 6 samples.

Results

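The actin, myosin and cofilin genes of mouse colon tumor cells are described here as a list of 53 genes: the actins, the proteins that bundle, cross-link and coat actin filaments, nonmuscle myosin II, cofilin with its kinases and phosphatases, the factors that start and lengthen filaments and the proteins that tie filaments to the membrane, with a few related genes. Members were listed by name for their place in the actin cytoskeleton, with the effectors of p21-activated kinases (Paks) among them, and were found through the symbol of each gene identifier. All 53 had a row among the 21959 genes of the deposited table that passed its quality status in both conditions, and 51 of them reached an FPKM of 1 in at least 1 condition. FPKM is the number of sequenced fragments, scaled by transcript length and by the size of the library, so levels can be compared between genes per length.

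Actin monomers assemble into filaments that push the cell edge forward, stiffen the cortex and, pulled by myosin II, contract. Cofilin severs and disassembles old filaments; Lim kinases switch it off by phosphorylation and Slingshot phosphatases switch it on again, while myosin II is switched on by phosphorylation of its regulatory light chain. Group I Paks phosphorylate Lim kinases and myosin light chain kinase, and in gut epithelium the same machinery supports the brush border, the junctional belt and cell movement.

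The RNA came from primary cells grown out of colon tumors of mice with Cre under the CDX2 promoter (CDX2P-NLS-Cre) and a heterozygous Apc deletion (APCΔ/+), alleles that both groups carry and that came from C57BL6/J lines. PID+ cells (3 samples, mice 4, 7 and 26) also carried PID, a conditional transgene at the ROSA26 locus that encodes a peptide inhibitor of Group I Paks, and PID- cells (3 samples, mice 1, 2 and 3) did not, although their source is labelled as normal. Which PID- mice these numbers stand for is open, since the study numbers its PID- cells differently elsewhere. The labels name 3 mice per group, whereas the methods speak of repeated sequencing runs and merge them into 1 alignment per condition. The table therefore gives 1 pooled FPKM per gene and condition, with the bounds of an interval, and no difference below has a replicate check. The PID transgene has no row, so which rows are PID+ was read from the treatments in the labels alone.

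As a check of the tissue, the labelled epithelial origin was compared with marker genes. Of 10 intestinal epithelial markers, 8 reached an FPKM of 1. Values in the following sentences are FPKM, PID- before PID+, and ranges in parentheses are the deposited intervals. The keratin Krt18 had 1199 in PID- and 2843 in PID+ cells, and the adhesion protein Epcam 124 and 401. Some defining genes of the intestine were low or absent: Cdx1 was listed at 0 in both conditions, villin (Vil1) had 0.0614 and 0.175, and Cdx2 had 8.04 in PID- and 0.542 in PID+ cells. Others were present: Krt20 had 73.5 and 158, and the intestinal cadherin Cdh17 had 25.9 and 1.67, with separate intervals. The cells of both groups thus had abundant epithelial keratins and a mixed set of intestinal markers.

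Most of the cytoskeleton list differed little between the conditions, as did most of all genes. A gene was called higher or lower when FPKM + 1 differed at least 2-fold, which is 1 on the log2 scale used throughout for PID+ over PID-; adding 1 understates changes of genes with low FPKM. By this measure 4 of the 51 members were higher in PID+ cells, against 6.16% of all genes that reached an FPKM of 1, and 3 were lower, against 7.03% of all genes. As shares of the members these are 7.84% and 5.88%, both near the background. Within 1.5-fold were 64.7% of the 51 members, against 69.5% of all genes that reached an FPKM of 1. The median log2 change was 0.09 for the members and -0.01 for all genes, and the members' median turned to -0.011 with equal total FPKM. Setting Gapdh equal moved the median of all genes by -0.56 and brought the members' median to -0.53. The count of lower members was 7 with equal totals and 7 with 0.1 added in place of 1, against 8.29% and 9.32% of all genes.

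Deposited intervals were broad: the median distance from FPKM to upper bound was 61.5% of FPKM in PID- and 63.4% in PID+ cells over the 40 members with a mean FPKM of at least 10. The higher genes were filamin C (Flnc), the myosin heavy chains Myh14 and Myh10, and the formin Diaph3, and the lower ones were fascin (Fscn1), the enteric smooth muscle actin Actg2 and the tropomyosin Tpm2. At 3-fold, Flnc was the 1 higher member, against 2.08% of all genes able to reach that fold, and Fscn1 and Actg2 the 2 lower ones, against 3.42%. Deposited intervals that did not overlap were found for 1 member, Flnc, higher in PID+ cells as in 0.348% of all genes, and for 0 members lower in PID+ cells, as in 1% of all genes. The threshold lay close to several members: Diaph3 was just inside it at 1.08, and just outside it on the lower side were Acta2 at -0.998, Wasf1 at -0.98, Tagln at -0.96 and moesin (Msn) at -0.94. On the higher side the nearest member outside was Actn1 at 0.78.

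**Figure D1:**
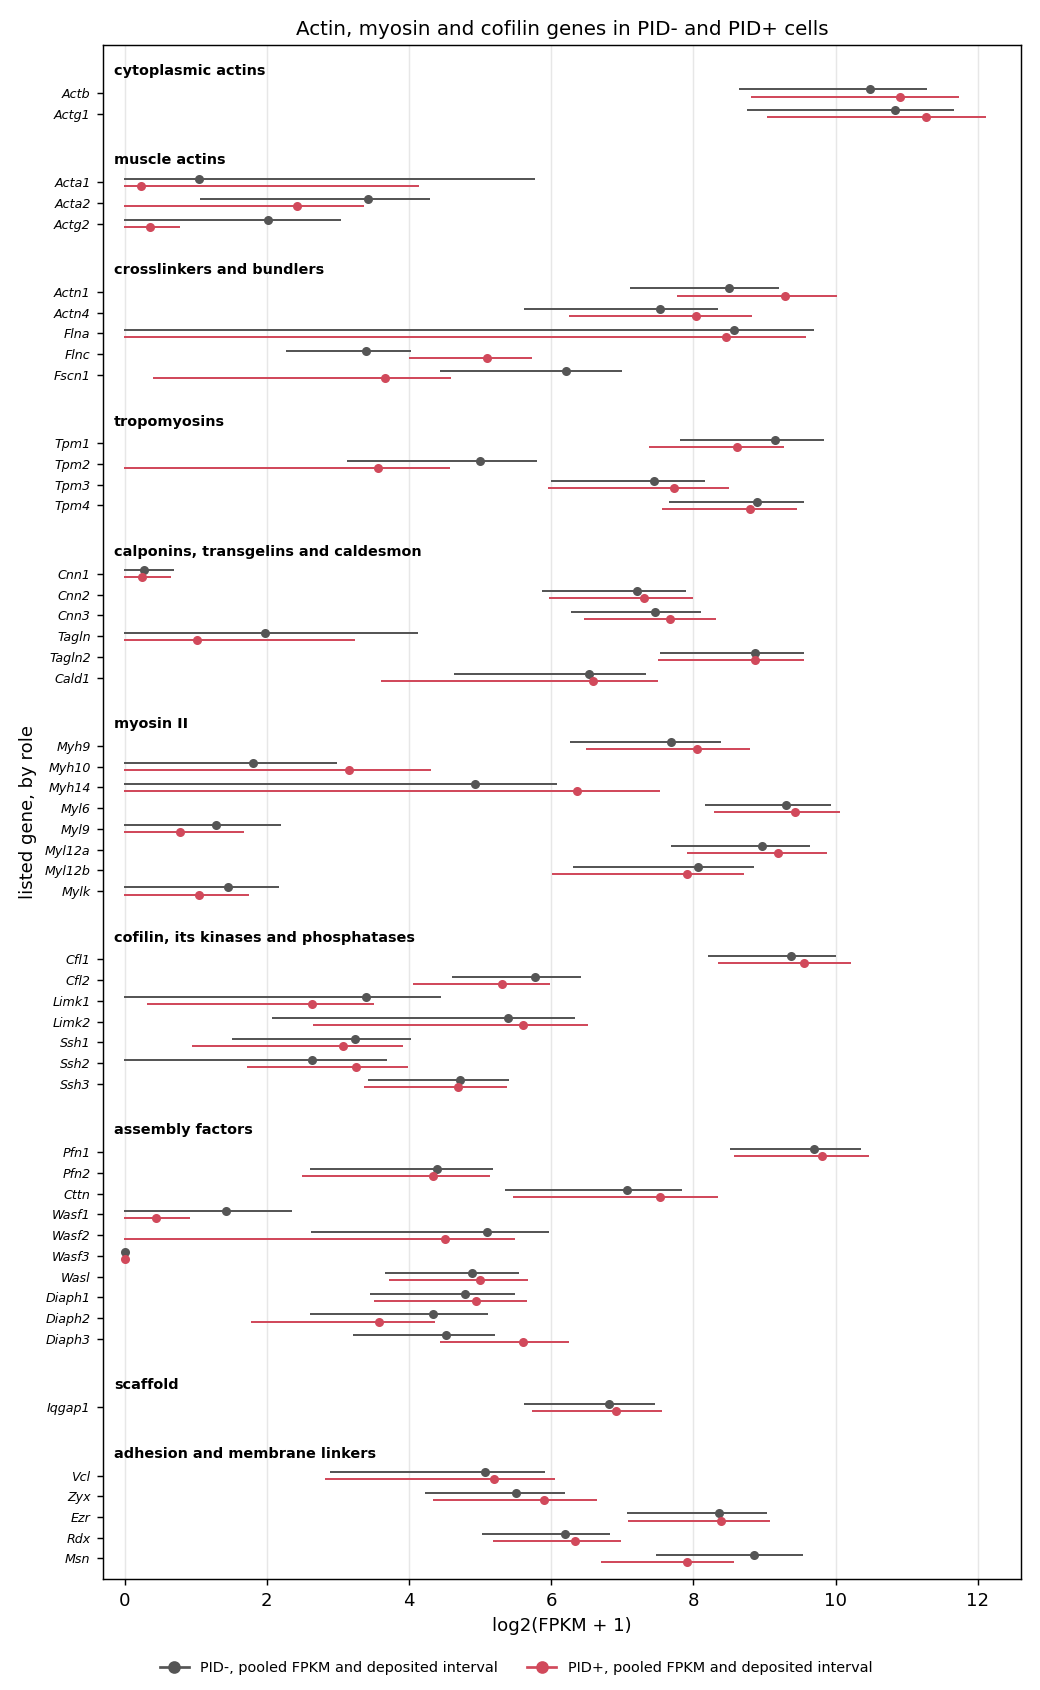
Pooled FPKM of listed genes in PID- (grey) and PID+ (red) cells, by role, on the log2(FPKM + 1) scale; points are the deposited values and lines the deposited intervals. The intervals of Flnc do not meet, those of Fscn1 overlap over a narrow range, and the most abundant genes, Actg1 and Actb, lie at the right with wide overlapping intervals.

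The cytoplasmic actins, which build the filaments of every nonmuscle cell, made up nearly all actin message. Actg1 (ENSMUSG00000062825.12, GRCm38 chromosome 11, from 120345690 to 120348542) was the most abundant member, with 1825 in PID- (436 to 3214) and 2458 in PID+ cells (531 to 4386). Actb (ENSMUSG00000029580.11, chromosome 5, from 142903115 to 142906754) had 1433 (401 to 2466) and 1909 (450.1 to 3368). Their log2 changes of 0.43 and 0.41 turned to -0.20 and -0.21 when Gapdh was set equal, which remains above the median of all genes under that scaling, -0.57. Their balance hardly moved: Actg1 held 55.8% of the FPKM of the 5 listed actins in PID- and 56.2% in PID+ cells, and Actb 43.8% and 43.7%. The split is approximate, since 10.77% of the stretches of 50 bases of Actb also occur in other genes, Actg1 among them. Such shares within a family do not depend on a scaling that moves all genes of a condition alike. Chromosome medians, which can differ between the members of a family, were not subtracted from them.

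The 3 muscle actins were scarce and all had lower values in PID+ cells, under every scaling tried. Actg2 (ENSMUSG00000059430.11, chromosome 6, from 83512905 to 83536265) had 3.06 in PID- (0 to 7.19) and 0.280 in PID+ cells (0 to 0.704), a log2 change of -1.67. The vascular and myofibroblast actin Acta2 had 9.76 (1.11 to 18.4) and 4.39 (0 to 9.23), and it passed 2-fold with equal totals at -1.08, with equal Gapdh at -1.48, with chromosome medians subtracted at -1.03 and with a pseudocount of 0.1 at -1.14. Skeletal actin (Acta1) had 1.07 and 0.177, past 2-fold with a pseudocount of 0.1 at -2.08, but its upper bounds of 53.1 and 16.4 far exceed these values. Separately, 28 of its 1534 stretches of 50 bases, the read length in the labels, also occur in Actb or Actg1, and another annotated gene overlaps it. Together the muscle actins made up 13.9 FPKM in PID- cells and 4.84 FPKM in PID+ cells.

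Other genes typical of contractile cells were near the floor in both conditions. Calponin 1 (Cnn1), a smooth muscle actin binder and a member under the FPKM filter, had 0.204 in PID- and 0.188 in PID+ cells. Of 8 smooth muscle markers, 6 had an FPKM under 1 in both conditions, with smooth muscle myosin (Myh11) at 0.0345 and 0.0544 and desmin (Des) at 0.0320 and 0.119. Their sum of 26.5 in PID- and 41.4 in PID+ cells was mostly smoothelin (Smtn), at 22.3 and 37.8. The defining smooth muscle genes were thus at or near 0 in both conditions.

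Fibroblast markers were lower in PID+ cells. Of the 9 fibroblast markers, 5 reached an FPKM of 1, all of them called lower in PID+ cells, against 7.03% of all genes. Only Col1a1 among these reached an FPKM of 1 in PID+ cells. The others passed the filter through PID- cells alone, so they could not be called higher. The sum of the list was 36.2 in PID- and 3.07 in PID+ cells. The collagen Col1a2 was the most abundant in PID- cells, at 11.9 against 0.0654 in PID+ cells, while Col1a1 led in PID+ cells at 2.32 against 11.9. Lum was listed at 0 in both conditions, Dcn and Thy1 at 0 in PID+ cells, and Pdgfra and Pdgfrb stayed under 1. Of the 8 epithelial markers that reached an FPKM of 1, 5 were called higher, Cdh1 and Krt8 among them, and 2 lower, against 6.16% and 7.03% of all genes. The part of fibroblasts in the lower values of muscle actins, Tagln, Tpm2, fascin or the lower genes outside the list was not tested. In bulk RNA, fewer cells with a transcript and less of it per cell cannot be told apart. Of the other marker lists, 10 of 11 striated muscle, 5 of 6 endothelial and 5 of 6 leukocyte genes had an FPKM under 1 in both conditions. The exceptions were Tnnt2 with 64.2 in PID- and 76.3 in PID+ cells, Kdr with 1.01 and 3.33, and Cd68 with 16.8 and 21.8.

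Among the cross-linkers and bundlers 2 genes passed 2-fold, in opposite directions. Fascin (Fscn1, ENSMUSG00000029581.11, chromosome 5, from 142960343 to 142973185) packs filaments into the tight bundles of filopodia and invasive protrusions. It had 73.0 in PID- (20.9 to 125) and 11.6 in PID+ cells (0.338 to 23.0), a log2 change of -2.55 and the largest of any member with 1 added. Its upper bound in PID+ cells lay only just above its lower bound in PID- cells, and it was past 2-fold under every scaling and with the smaller pseudocount.

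Filamin C (Flnc, ENSMUSG00000068699.9, chromosome 6, from 29433256 to 29461883), a cross-linker best known from muscle Z-discs, went the other way, with 9.49 in PID- and 33.3 in PID+ cells and a log2 change of 1.71. Its interval ended at 15.12 in PID- and began at 15.14 in PID+ cells, so the gap is slim. Genes of chromosome 6 had a median log2 change of 0.34, and with chromosome medians subtracted Flnc kept 1.36. Filamin A (Flna), the main filamin of nonmuscle cells, had 378 and 351 with lower bounds of 0 in both conditions. Of the FPKM of the listed filamins, Flnc thus held 2.45% in PID- and 8.67% in PID+ cells. The alpha-actinins, which cross-link filaments in stress fibers and at adhesions, had 362 in PID- and 624 in PID+ cells for Actn1, and 184 and 262 for Actn4.

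Tropomyosins wind along the filament and set which motors and severing proteins reach it. Tpm2 (ENSMUSG00000028464.13, chromosome 4, from 43514711 to 43523765), typical of muscle and stress fibers, had 30.9 in PID- (7.84 to 54.0) and 10.8 in PID+ cells (0 to 22.6), a log2 change of -1.44. It stayed past 2-fold under each scaling, down to -1.12 after the chromosome 4 median of -0.31 was subtracted. The other members of the family were abundant and within 2-fold, except Tpm1 with equal Gapdh, at -1.15. Tpm1 went from 45.4% to 37.1% of tropomyosin FPKM between PID- and PID+ cells, and Tpm4 from 38.2% to 41.9%. Tpm3 went from 13.9% to 19.95%, a value to read with care because 40.03% of its stretches of 50 bases also occur in another gene, Tpm3-rs7. The leading tropomyosin by pooled FPKM was thus Tpm1 in PID- and Tpm4 in PID+ cells. The intervals of Tpm1 and Tpm4 overlap in both conditions.

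The calponins, transgelins and caldesmon, which sit on filaments and temper contraction, showed the same contrast between scarce muscle forms and abundant general forms. Transgelin (Tagln), the smooth muscle form, had 2.93 in PID- (0 to 16.3) and 1.02 in PID+ cells (0 to 8.36), and it passed 2-fold with a pseudocount of 0.1, at -1.43, with equal totals, at -1.01, and with equal Gapdh, at -1.24. The gene overlaps Pcsk7 in the annotation. Its relative Tagln2 had 464 and 465, which is 99.4% and 99.8% of transgelin FPKM. Cnn2 and Cnn3, the nonmuscle calponins, held 45.6% and 54.4% of calponin FPKM in PID- cells and 43.6% and 56.3% in PID+ cells. Caldesmon (Cald1) had 91.2 and 95.2.

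Myosin II, the motor that slides actin filaments, showed its differences in the heavy chains. Myh9, which encodes the heavy chain of myosin IIA, was the main one in both conditions, at 205 in PID- and 265 in PID+ cells. Myh14, for myosin IIC (ENSMUSG00000030739.14, chromosome 7, from 44605803 to 44670843), had 29.4 in PID- (0 to 66.2) and 81.4 in PID+ cells (0 to 183), a log2 change of 1.44. Its share of heavy chain FPKM went from 12.4% to 23.0%, while that of Myh9 went from 86.5% to 74.8%. Myh10, for myosin IIB (ENSMUSG00000020900.12, chromosome 11, from 68691559 to 68816632), had 2.49 (0 to 6.87) and 7.88 (0 to 18.7), a log2 change of 1.35, and held 1.05% and 2.22%. With Gapdh set equal, Myh14 and Myh10 dropped below 2-fold, to 0.82 and 0.81. The lower bounds of both genes were 0 in each condition, so their intervals overlap.

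No light chain passed 2-fold. Myl6, the essential light chain, had 629 in PID- (288 to 969) and 686 in PID+ cells (314 to 1057). Of the regulatory light chains, the part of the motor that kinases phosphorylate, Myl12a had 498 (206 to 789) and 584 (241 to 927). Its neighbor Myl12b had 268 (78.9 to 457) and 239 (64.1 to 413). The split between this pair is uncertain, since 18.8% of the stretches of 50 bases of Myl12a and 30.6% of those of Myl12b occur in another gene, in part each other, and annotated genes overlap both. Myl9, the smooth muscle form, had only 1.44 (0 to 3.55) and 0.713 (0 to 2.16), under 1% of the regulatory light chain FPKM, with a log2 change of -0.51. Myosin light chain kinase (Mylk, chromosome 16) was also scarce, with 1.73 (0 to 3.47) and 1.07 (0 to 2.32), and its log2 change of -0.40 became 0.10 once the chromosome 16 median of -0.50 was subtracted.

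**Figure D2:**
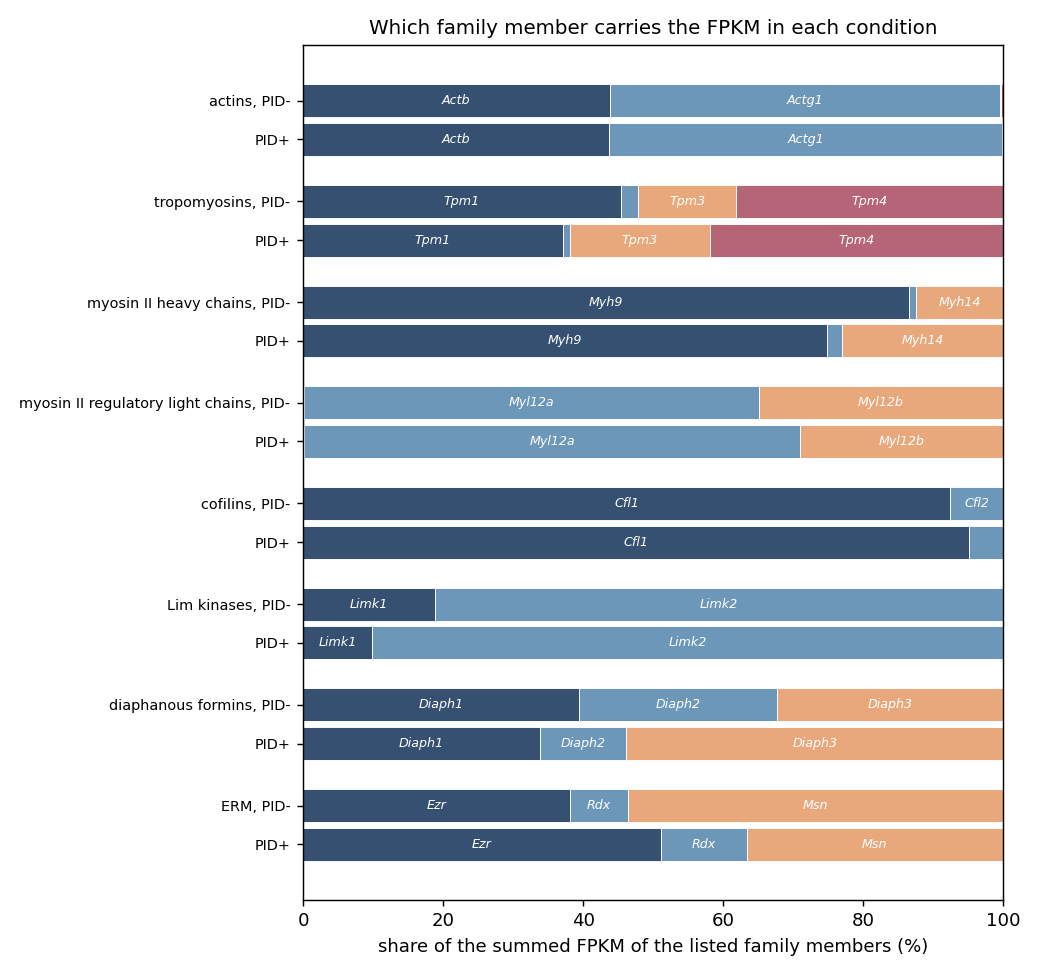
Share of the summed FPKM of the listed members of each family (%), in PID- and PID+ cells; each bar adds up to 100% and segments are genes. Segments of Myh14 and Diaph3 are wider in PID+ cells, those of Limk1, Diaph2 and Msn narrower, and the split between Actb and Actg1 is nearly the same.

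No member of the cofilin pathway passed 2-fold. Cofilin 1 (Cfl1), the general form, had 659 in PID- (297 to 1021) and 752 in PID+ cells (327 to 1177), and the muscle form Cfl2 had 53.8 (23.5 to 84.0) and 38.6 (15.9 to 61.3). Cfl1 held 92.5% of cofilin FPKM in PID- and 95.1% in PID+ cells. Its gene overlaps Snx32 in the annotation. Cofilin message thus exceeded that of its kinases by far in both conditions.

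The Lim kinases, which phosphorylate cofilin and are activated by Paks, differed in their balance. Limk1 had 9.56 in PID- (0 to 20.6) and 5.24 in PID+ cells (0.262 to 10.2), a log2 change of -0.76. Limk2 had 41.2 (3.27 to 79.1) and 47.6 (5.36 to 89.9). Limk2 was the main form throughout, and the share of Limk1 in their sum was 18.8% in PID- and 9.91% in PID+ cells. With Gapdh set equal, Limk1 and Cfl2 passed 2-fold, at -1.26 and -1.07.

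The Slingshot phosphatases, which reverse that step, had a summed FPKM of 39.1 in PID- cells against 40.7 in PID+ cells, with Ssh3 the main form. Ssh3 had 25.4 in PID- (9.81 to 41.0) and 24.7 in PID+ cells (9.40 to 40.02). Ssh1 had 8.49 (1.87 to 15.1) and 7.44 (0.957 to 13.9). Ssh2 had 5.19 (0 to 11.8) and 8.51 (2.35 to 14.7), a log2 change of 0.62, and its share of Slingshot FPKM went from 13.3% to 20.9%. FPKM says nothing of phosphorylation, the level at which Paks act on these proteins.

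Of the members that assemble filaments, the formin Diaph3 passed 2-fold with 1 added. Diaph3 (ENSMUSG00000022021.10, chromosome 14, from 86655367 to 87141235), which nucleates and elongates straight filaments, had 22.0 in PID- (8.39 to 35.5) and 47.6 in PID+ cells (20.8 to 74.4), a log2 change of 1.08. Across the scalings, though not by the deposited intervals, this call is the least secure of the set. It was 0.98 with equal totals, 0.47 with equal Gapdh and 0.83 with chromosome medians subtracted. Diaph2, on chromosome X, had 19.2 and 10.96, and Diaph1 26.8 and 29.9. The log2 change of Diaph2, -0.76, was past 2-fold with equal Gapdh at -1.32, but -0.30 with chromosome medians subtracted. Of these 3 genes alone, the leading one was Diaph1 in PID- cells, at 39.4% of their sum, and Diaph3 in PID+ cells, at 53.8%. The intervals of Diaph1 and Diaph3 overlap in both conditions. The formin Inf2 had more than either, 58.5 and 52.1.

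Profilin 1 (Pfn1), which feeds actin monomers to growing ends, was among the most abundant members, with 831 in PID- (369.5 to 1293) and 891 in PID+ cells (384 to 1399). Pfn2 had 19.97 and 19.3. Of the WAVE proteins, which turn on the Arp2/3 complex at the cell edge, Wasf2 was the main form at 33.1 and 21.7. Its log2 change of -0.59 was past 2-fold with equal Gapdh at -1.18, but -0.27 with chromosome medians subtracted. Wasf1 had 1.68 and 0.355, and it crossed 2-fold with a pseudocount of 0.1, at -1.97, with equal totals, at -1.01, and with equal Gapdh, at -1.12. Wasf3 was at the floor, with at most 3 estimated reads in each condition, so no fold is given. The N-WASP gene Wasl, with 28.6 and 31.0, and cortactin (Cttn), a branch stabilizer, with 133 and 183, were within 2-fold. The scaffold Iqgap1, which binds filaments at the cell edge, had 111 in PID- and 119 in PID+ cells.

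Of the proteins that tie filaments to the membrane, moesin had the largest difference. Ezrin (Ezr), radixin (Rdx) and moesin (Msn) anchor cortical actin, ezrin being the form of epithelial microvilli. Msn had 459 in PID- (179 to 739.6) and 239 in PID+ cells (104 to 375), whereas Ezr had 327 and 334, and Rdx 71.9 and 79.9. The leading form was thus Msn in PID- cells, at 53.5% of their sum, and Ezr in PID+ cells, at 51.1%. The intervals of Msn and Ezr overlap in both conditions. Msn lies on chromosome X, whose genes had a median log2 change of -0.45: its value was -0.48 with that subtracted, but -1.04 with equal totals and -1.56 with equal Gapdh. Of all 53 members, 9 overlap another protein-coding gene in the annotation, Ezr, Vcl and Zyx among them. The adhesion proteins vinculin (Vcl) and zyxin (Zyx) had 32.7 and 44.6 in PID- and 35.6 and 58.9 in PID+ cells.

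Other genes of actin regulation, in 11 lists by role, were more often called lower than higher in PID+ cells. These lists were drawn up with earlier results of these data known, so their counts only describe the chosen genes. Of 135 listed, 134 had a row and 107 reached an FPKM of 1. Of these, 5 were called higher in PID+ cells (4.67%, against 6.16% of all genes) and 13 lower (12.1%, against 7.03%). Their median log2 change was -0.16, against -0.01 for all genes. None of the 9 measured Arp2/3 subunits, which branch filaments, passed 2-fold, and their median was -0.05. The 6 measured cofilin partners, such as destrin (Dstn) with 368 in PID- and 454 in PID+ cells, did not pass it either, at a median of -0.01. Not all medians were negative: the median was 0.72 over 5 brush border genes and 0.03 over 18 capping, severing and monomer-binding genes. Of the 5 brush border genes 3 had positive and 2 negative changes. The other 6 of the 11 listed there, villin among them, were under an FPKM of 1 in both conditions. The summed FPKM of that list was 291 in PID- and 258 in PID+ cells. The other lists had negative medians. Of the 10 measured myosin II regulators, 2 were called higher (20%, against 6.16% of all genes) and 0 lower.

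The lower genes included partners of the members above. Wipf1, which binds and stabilizes N-WASP, had 22.0 in PID- (8.91 to 35.0) and 3.17 in PID+ cells (0.140 to 6.19), with intervals apart. The same was true of the formin Fhod3, with 9.48 (2.33 to 16.6) and 0.630 (0 to 2.12). The formins Fmnl1, with 22.9 and 6.92, and Fmnl3, with 9.66 and 2.79, were also lower. The actin binder Cotl1 had 15.9 and 3.17, and the WAVE subunit Cyfip2 1.36 and 0.147. At adhesions, tensin 1 (Tns1) had 6.71 and 0.378 and the Ena/VASP protein Evl 16.8 and 6.26. The median of the adhesion adaptors was -0.17 over 19 genes. Among the other lower genes were the microvillus cadherin Cdhr2, with 20.5 and 9.40, and the LIM protein Csrp2, with 14.8 and 6.57. Pak3 was also lower, with 75.9 in PID- (0 to 172) and 14.7 in PID+ cells (0 to 35.2). It lies on chromosome X, whose genes had a median log2 change of -0.45. The other Group I kinases, Pak1 with 23.4 and 17.6 and Pak2 with 52.6 and 39.5, were within 2-fold. In the annotation Fhod3, Cyfip2 and Evl overlap the spans of other protein-coding genes.

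The higher genes were fewer, and not all are named here. Eps8l2, a relative of the capping and bundling protein Eps8, had 16.4 in PID- (2.96 to 29.8) and 77.0 in PID+ cells (20.8 to 133). Citron kinase (Cit), which acts on myosin II in cell division, had 6.78 and 17.8, and the death-associated kinase Dapk1, which phosphorylates the light chain, 0.0865 and 1.42. Destrin and the genes of the next paragraph were named for their roles after their values had been seen.

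Many actin genes are targets of serum response factor (Srf), which binds the CArG box and is driven by the actin-sensing coactivators Mrtfa and Mrtfb. Srf itself had 12.1 in PID- and 12.8 in PID+ cells, Mrtfa 15.9 and 14.0, and Mrtfb 9.22 and 7.68, all within 2-fold, while the muscle coactivator Myocd was near 0. The box was searched on both strands, with no mismatch, in RefSeq promoters (GRCm38.p6, 250 bases before to 50 bases after each start), after the expression values had been seen. Promoters were found for 47 of the 53 members; Actb, Actg2, Cttn, Diaph1 and Tagln were among those without an entry. The box was in 6 of their 57 promoters, or 10.5%, and in 1.63% of all 32851 promoters. The genes were Acta1, Actg1, Cnn2, Myl6, Myl9 and Vcl, and their log2 changes ran from -0.82 for Acta1 to 0.43 for Actg1; none passed 2-fold with 1 added, and Acta1 did with 0.1 added. A shared box therefore went with abundant and scarce members alike.

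The stretches around 5 of these boxes, written 5′ to 3′ on the strand of the gene with the CArG box in capitals, are shown because these genes differ widely in FPKM; that the boxes resemble each other follows from the search. They lie at chr11:120348536-120348625 (minus strand), chr8:123894799-123894888 (minus), chr10:79988504-79988593 (plus), chr14:20929148-20929220 (plus) and chr2:156775263-156775352 (plus).
Actg1: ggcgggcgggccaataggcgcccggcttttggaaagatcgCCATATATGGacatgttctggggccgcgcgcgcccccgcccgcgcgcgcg
Acta1: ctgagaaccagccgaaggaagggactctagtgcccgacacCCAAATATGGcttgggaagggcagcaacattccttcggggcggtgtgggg
Cnn2: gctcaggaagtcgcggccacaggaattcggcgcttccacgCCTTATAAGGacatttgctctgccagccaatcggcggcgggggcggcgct
Vcl: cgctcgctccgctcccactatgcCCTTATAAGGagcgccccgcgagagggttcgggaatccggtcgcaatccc
Myl9: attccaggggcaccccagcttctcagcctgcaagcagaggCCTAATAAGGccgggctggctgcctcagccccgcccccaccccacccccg

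The first base of the box lay 56 bases before the start in Cnn2, 73 in Acta1, 90 in Actg1, 161 in Myl9 and 227 in Vcl. In Myl6 it lay 50 bases before the RefSeq start. The RefSeq starts of Myl6, Actg1, Cnn2 and Myl9 fall inside the spans of these genes in Gencode. The letters of the box were identical in Cnn2 and Vcl. Other motifs searched on both strands in the same promoters were the E-box CACCTG, which Snail and Zeb factors bind, and the MCAT element CATTCC, which Tead factors bind. CACCTG or its complement was in 10 of the 57 member promoters (17.5%) and in 20.2% of all promoters, and of the members past 2-fold with a promoter entry it was found in Myh10 alone. CATTCC or its complement was in 15 (26.3%) and 14.7%, and of those members it was found in Flnc and Myh10. A match describes the letters of a promoter and nothing more.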

How the data were processed

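RNA from 3 PID+ and 3 PID- samples was sequenced after poly(A) selection. The authors trimmed adapters with cutadapt, aligned reads with TopHat and Bowtie2 to GRCm38.p3 guided by annotated protein coding genes, pooled each condition's reads, and deposited gene FPKM from CuffDiff with the bounds of its intervals. Of 21966 genes, 7 with a status other than OK were left out; 21734 identifiers had a symbol. Changes are PID+ over PID- as the log2 ratio of FPKM + 1. With 1 pooled value per condition no test was run. Positions, overlaps and transcripts came from Gencode M21 (GRCm38), promoters from RefSeq. Members given in full were those past 2-fold, with separate intervals or among the 5 with the highest mean FPKM, and the Lim kinases, cofilins, Slingshots, regulatory light chains and Mylk; of other actin genes, most of those past 2-fold. A few listed genes are counted but not reported here by name. Members and lists were chosen with earlier results of these data known. Alternatives were a pseudocount of 0.1, equal totals, upper quartiles or Gapdh, chromosome medians subtracted, other FPKM filters, 3-fold and separate intervals. The calculations were tested on simulated data with Python 3.11.15, numpy 2.4.6 and pandas 2.3.3.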

Additional observations from a re-analysis of the deposited data

How the results depend on the processing

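The median log2 change of the members moved by under 0.1 except with equal total FPKM, at -0.011, and with equal Gapdh, at -0.53. These scalings divide the PID+ FPKM of all genes by the same factor. With 1 added, genes with low FPKM move less. The count of higher members was 1 with equal Gapdh (against 2.20% of all genes), 1 at 3-fold and 1 with separate intervals. The count of lower members was 7 with a pseudocount of 0.1 (against 9.32% of all genes), 7 with equal totals (against 8.29% of all genes), 13 with equal Gapdh (against 20.4% of all genes) and 0 with separate intervals. Of the other actin genes, 2 were higher and 32 lower with equal Gapdh, which is 1.87% and 29.9% of them against 2.20% and 20.4% of all genes, and 3 were higher among those with a mean FPKM of at least 5 (3.09%, against 5.01% of all genes); the alternatives for these genes were chosen after seeing the data. The other counts were within 1.5 times the reported ones. For the 22 members given in full, none that was past 2-fold changed sign under any scaling or pseudocount. Among all 53 members, 24 changed sign with equal Gapdh and 6 with equal totals. With chromosome medians subtracted 10 changed sign, Flna and Mylk among them. Calls were lost by Myh10 and Myh14 with equal Gapdh and by Diaph3 with equal totals, with equal Gapdh and with chromosome medians subtracted. With a pseudocount of 0.1 Actg2 was at -3.06.

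No paired analysis was possible because the values are pooled and the labels number different mice in each group. The low values of genes with 1 transcript fell on steps: 92.5% of 666 values in PID+ and 91.8% of 635 in PID- cells matched whole reads to within 0.1 of a read, where evenly spread values would do so in 20%. The FPKM of 1 read in PID+ cells was 1.39 times that in PID- cells. This ratio mixes depth with scaling, and sequencing depth is not known. Reads of genes with several transcripts, estimated from the longest, are approximate.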
